A study of Mus musculus with 2 samples.

Results

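The genes described here are 33 genes of protein folding and stress in the endoplasmic reticulum (ER), read by symbol out of 32285 features in a single-cell RNA dataset of the mouse pancreas at embryonic day 14.5. They were listed for their function and were set out across cell classes in each of 2 libraries, acinar against endocrine cells first. The Null library pooled 3 Fgf9 -/- pancreata (3 litters, both Fgf9 copies carrying an inserted LacZ cassette), and the Control library pooled 8 Fgf9 +/+ and +/- pancreata (3 litters). All mice were on a C57BL/6J background, and cells were dissociated with TrypLE, gated by size against doublets and sorted as DAPI-negative. With 1 library for each genotype there is no replicate, so no test of genotype was made, and a difference between genotypes cannot be told apart from a difference between the libraries, pools or embryos.

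The ER is where secreted and membrane proteins are threaded through a membrane channel, folded by chaperones, given disulfide bonds and, when they fail to fold, sent out for destruction. Sensors in its membrane (Ern1, Eif2ak3 and Atf6) respond to unfolded protein by raising the transcription factors Xbp1, Atf4 and Atf6 and through them the folding machinery, which is known as the unfolded protein response. The pancreas holds both of the classic professional secretory cell types, acinar cells that make digestive enzymes and endocrine cells that make hormones, so the folding machinery is known to matter to both.

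A short DNA element shared by promoters of this machinery, the ER stress response element (ERSE), is known to be bound by Atf6 together with the CCAAT-binding factor NF-Y. The promoters below are shown because they let the shared element be seen beside genes whose acinar and endocrine levels differ. RefSeq promoters on GRCm38.p6, running from 250 bases before to 50 bases after each start, were available for 28 of the 33 genes. The ERSE, searched on both strands as CCAAT followed by CCACG after a gap of 9 bases of any kind, was found in 8 of these 28 promoters (Calr, Canx, Creld2, Dnajc3, Hsp90b1, Hspa5, Pdia6 and Syvn1), against 39 of all 32851 promoters (0.119%). The shorter ERSE-II, searched on both strands as ATTGG followed by CCACG after a gap of 1 base, was found in Dnajb11 and Herpud1, against 12 of all promoters (0.0365%). Hsp90b1 held 2 matches. Capitals mark the letters that the motif fixes, and windows run 5′ to 3′ on each gene's strand. The windows are chr2:34772015-34772053 (plus strand) for Hspa5, chr14:118937817-118937855 (plus) for Dnajc3, chr15:88819510-88819548 (plus) for Creld2, chr8:84847065-84847103 (minus) for Calr, chr19:6046522-6046560 (plus) for Syvn1 and chr8:94386367-94386397 (plus) for Herpud1, and each match lies upstream of the start.
Hspa5: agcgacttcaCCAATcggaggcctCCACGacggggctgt
Dnajc3: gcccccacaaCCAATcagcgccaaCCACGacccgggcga
Creld2: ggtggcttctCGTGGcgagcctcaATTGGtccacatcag
Calr: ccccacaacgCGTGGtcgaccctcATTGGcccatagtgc
Syvn1: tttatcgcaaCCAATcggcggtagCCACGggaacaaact
Herpud1: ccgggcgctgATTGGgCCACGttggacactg
In Creld2 and Calr the element reads on the opposite strand. A match describes letters only. The promoters of Pdia2, Edem1 and Xbp1, the genes that stood furthest to the acinar side, held neither motif in this window.

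The deposited matrices held 271129120 UMIs (unique molecular identifiers, each counting 1 captured RNA molecule) in the Null library and 339959625 in the Control library. After filters on depth, genes and mitochondrial share and removal of called doublets, 9111 Null and 25916 Control barcodes were kept, and fixed marker genes named 8463 of the Null barcodes (median 24958 UMIs) and 14585 of the Control barcodes (median 14845 UMIs). Of the unnamed barcodes, 415 in Null and 10742 in Control had no name at all, with median depths of 1219 UMIs in Null and 1654 UMIs in Control. A further 233 in Null and 589 in Control were epithelial without a class name, with median depths of 15692 UMIs in Null and 11620 UMIs in Control. Acinar-like cells (acinar cells below) numbered 2517 in Null and 3341 in Control, and endocrine-like cells 935 in Null and 1480 in Control. Digestive enzyme genes made up 5.16% of acinar UMIs in Null and 2.97% in Control, and hormone and granule genes made up 7.51% of endocrine UMIs in Null and 5.31% in Control. All 13 acinar markers were nevertheless detected in endocrine cells, where they summed to 0.192% of UMIs in Null and 0.357% in Control, and free RNA was estimated from the enzyme genes at 7.56% of endocrine UMIs in Null and 24.8% in Control. Fgf9 itself had 344 UMIs in 497 mesothelial cells of the Null library and 1581 UMIs in 1018 mesothelial cells of the Control library. Where the cassette sits relative to the 3′ end is not stated in the labels, so these 3′ reads do not check the label. The libraries shared 180 of their barcodes, 41 of them among kept cells that were named or were epithelial without a class name. Leaving shared barcodes out kept the counts of genes past a fold of acinar over endocrine and of Null over Control in both classes.

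As a share of UMIs, both secretory cell types held the most of this machinery, and endocrine cells held slightly more of it than acinar cells. Levels are given as CPM, a gene's UMIs scaled by the total of its class, with haemoglobin and mitochondrial genes left out of the total. The 33 genes together made up 1.18% of acinar UMIs in Null and 1.00% in Control, against 1.41% of endocrine UMIs in Null and 1.15% in Control. Counted per cell the order was the other way, with 568 UMIs of these genes in Null and 320 in Control per acinar cell. Endocrine cells, of lower depth, had 277 in Null and 139 in Control. By share of UMIs, the other classes were below acinar and endocrine cells in both libraries. Mesothelial cells stood at 0.864% in Null and 0.795% in Control, and mesenchymal cells at 0.841% in Null and 0.779% in Control. Endothelial cells stood at 0.716% in Null and 0.659% in Control, and ductal or trunk progenitors at 0.692% in Null and 0.710% in Control. Endocrine progenitors stood at 0.676% in Null and 0.685% in Control, and immune cells at 0.638% in Null and 0.615% in Control. Endocrine progenitors, which give rise to the endocrine cells, were thus at about the level of the ductal or trunk progenitors and not at that of hormone-making cells.

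Of the 33 genes, 19 in Null and 20 in Control were at their highest level in endocrine cells, and 10 in Null and 8 in Control were highest in acinar cells. The class of highest level was not counted over all features, so these counts have no background. Between these 2 classes all features leaned to endocrine cells too, with median log2 ratios, acinar over endocrine, of -0.56 in Null and -0.58 in Control. Among the 33 genes, those highest elsewhere were few. Sel1l, the scaffold of the ubiquitin ligase that clears misfolded ER proteins, was highest in endocrine progenitors at 171 CPM in Null and 172 CPM in Control, with acinar cells next at 170 CPM in Null and 111 CPM in Control; in Null the counting intervals of the classes overlapped. Ddit3 (Chop), the transcription factor linked to death under lasting stress, was highest in immune cells at 54.8 CPM in Null and 44.8 CPM in Control and lowest of all 8 classes in acinar cells at 13.8 CPM in Null and 12.7 CPM in Control. Trib3, a pseudokinase that Ddit3 and Atf4 are known to induce, was barely detected anywhere, at 3.52 CPM or less. Its highest level in each library, in endothelial cells, rested on 8 UMIs in Null and 11 UMIs in Control.

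**Figure D1:**
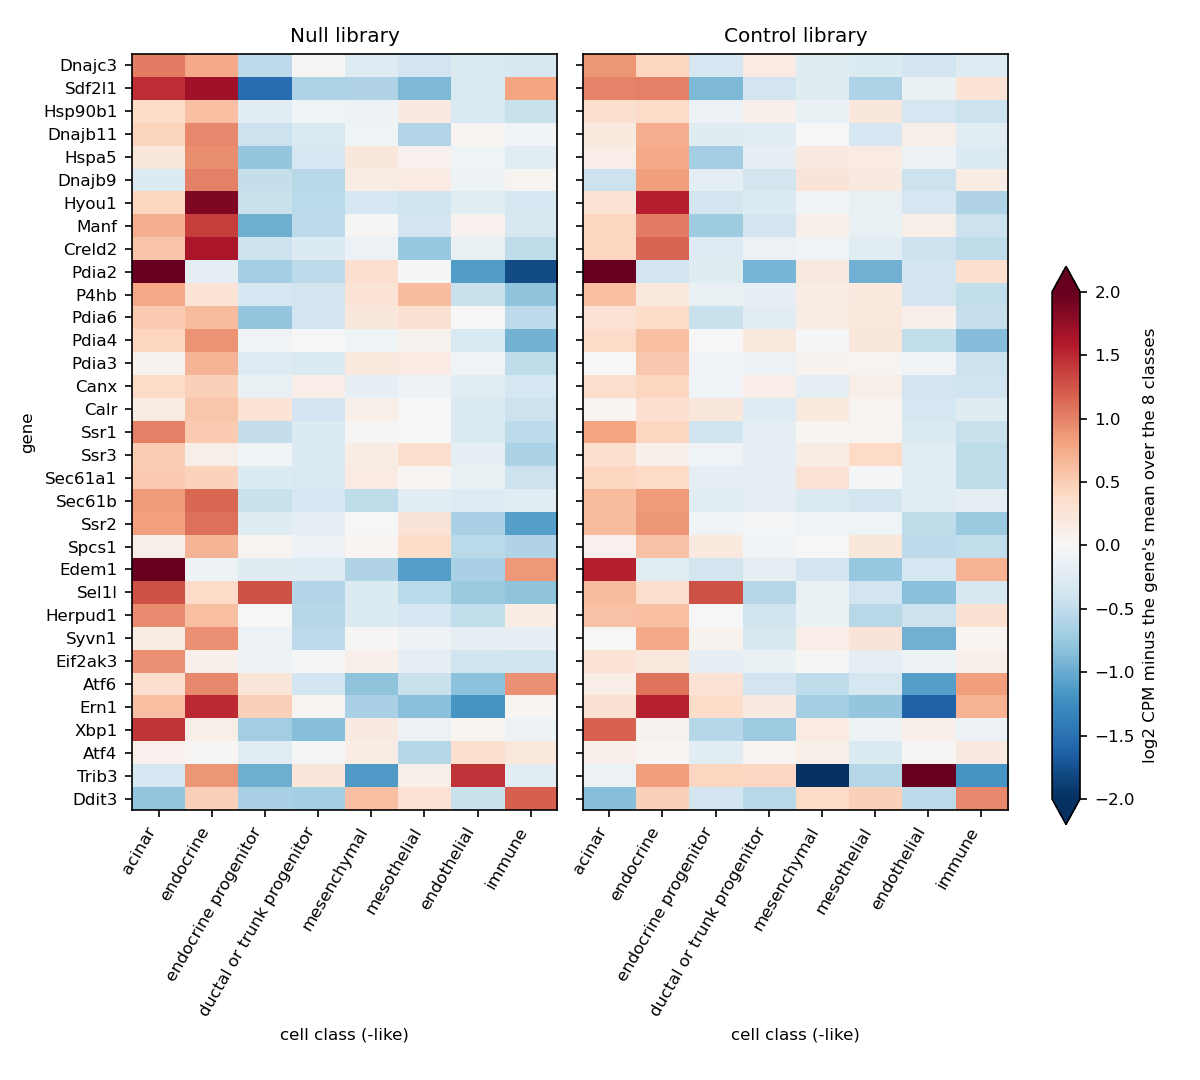
Level of each of the 33 genes in 8 cell classes, as log2 CPM minus the gene's mean over the classes, for the Null library (left) and the Control library (right). Red cells are above and blue cells below the gene's own mean; the scale is capped at 2 in either direction. The endocrine column is the warmest for most genes, with Pdia2, Edem1 and Xbp1 the warmest in the acinar column; the Trib3 row rests on 1 to 84 UMIs a class.

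Set against endocrine cells, acinar cells carried far more Pdia2, Edem1 and Xbp1 and less of most of the chaperones. In Null, these 3 genes were more than 2-fold higher in acinar cells (background 14.5% of 16333 features), and Hyou1, Dnajb9, Creld2, Ddit3 and Trib3, 5 genes, were more than 2-fold lower (background 36.1%). In Control, the same 3 were higher (background 11.8% of 16178 features), and Hyou1, Dnajb9, Ern1 and Ddit3, 4 genes, were lower (background 36.1%). As shares of the 33 genes these are 9.09% higher and 15.2% lower in Null and 9.09% higher and 12.1% lower in Control, all below the background. The median log2 ratio of the 33 genes, acinar over endocrine, was -0.29 in Null, against -0.56 over all features, and -0.23 in Control, against -0.58 over all features. Of the 33 genes, 7 had both acinar levels above both endocrine levels, 17 had both below, and for 9 the levels overlapped across libraries. This split was not counted over all features, whose median ratios also lay below 0 in both libraries. The larger group on the endocrine side therefore does not set the 33 genes apart.

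The chaperones leaned to endocrine cells about as far as all features did, and further than features of higher counts. Their median log2 ratio was -0.52 in Null, against -0.56 over all features, and -0.53 in Control, against -0.58. Over features with at least 1000 UMIs in the 2 classes, as each chaperone had, the medians were -0.36 in Null and -0.34 in Control. Of the 7 chaperones, 2 were more than 2-fold lower in each library (28.6%, background 36.1%). Among features with at least 1000 UMIs, this background was 24.6% in Null and 23.0% in Control. Hspa5 (BiP), the main ER chaperone of the Hsp70 family, had 1224 CPM in acinar cells of Null and 963 CPM in acinar cells of Control, against 1993 CPM in endocrine cells of Null and 1488 CPM in endocrine cells of Control. Both endocrine levels were the higher, and the log2 ratio was -0.70 in Null (95% counting interval -0.72 to -0.69) and -0.63 in Control (-0.65 to -0.61). Hyou1, a large Hsp70-like chaperone that resets nucleotides on Hspa5, lay furthest to the endocrine side of all 33 in Null, at 54.1 CPM in acinar cells of Null and 41.9 CPM in acinar cells of Control, against 147 CPM in endocrine cells of Null and 102 CPM in endocrine cells of Control. The groups did not overlap, and its log2 ratio was -1.44 in Null and -1.28 in Control. Dnajb9, a J-domain partner of Hspa5 that also restrains Ern1, was 2-fold lower or more in acinar cells of both libraries as well, with log2 ratios of -1.28 in Null and -1.26 in Control. At the other end of the group stood Dnajc3 (P58IPK), a J-domain protein known for holding back Eif2ak3, at 343 CPM in acinar cells of Null and 283 CPM in acinar cells of Control, against 285 CPM in endocrine cells of Null and 208 CPM in endocrine cells of Control. It was the only chaperone of the 7 with a ratio above 0, at 0.27 in Null and 0.44 in Control, although the Control acinar level lay just below the Null endocrine one. Hsp90b1 (Grp94, the ER member of the Hsp90 family), Dnajb11 (a J-domain partner that loads clients onto Hspa5) and Sdf2l1 lay between, from -0.52 to -0.22 in Null and from -0.53 to -0.01 in Control. Manf and Creld2 are secreted or lumenal proteins known to be induced by ER stress. Of these 2 stress-induced proteins of the ER lumen, Manf had log2 ratios of -0.65 in Null and -0.59 in Control, and Creld2 had -1.06 in Null and -0.73 in Control, past 2-fold in Null only.

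The disulfide isomerases split sharply, and the split rested on Pdia2, a pancreas-enriched isomerase. Pdia2 had 42.5 CPM in acinar cells of Null and 12.7 CPM in acinar cells of Control, against 2.30 CPM in endocrine cells of Null and 1.89 CPM in endocrine cells of Control. Its log2 ratio was 4.21 in Null (3.77 to 4.68) and 2.75 in Control (2.26 to 3.28), the widest of the 33 genes in each library. Outside acinar cells its level was 3.30 CPM or less in every class of both libraries. With each cell thinned to 2000 UMIs, a Pdia2 UMI was found in 7.35% of acinar cells in Null and 2.31% in Control, against 0.557% of endocrine cells in Null and 0.138% in Control. The endocrine values are those of a class given free RNA above, and the part of free RNA in them was not tested. Pdia2 lies at chr17:26195999-26199087 (GRCm38, minus strand). P4hb, the founding isomerase and also a subunit of collagen prolyl hydroxylase, was on the acinar side too, with 551 CPM in acinar cells of Null and 462 CPM in acinar cells of Control, against 390 CPM in endocrine cells of Null and 352 CPM in endocrine cells of Control. Its levels did not overlap, with log2 ratios of 0.50 in Null and 0.39 in Control. Pdia3, which works on glycoproteins held by the lectin chaperones, closed the group at -0.61 in Null and -0.54 in Control, and Pdia4 and Pdia6 lay between. The lectin chaperones themselves, Canx and Calr, stayed within -0.40 to -0.08 in both libraries.

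Of the 6 genes of entry into the ER, none passed 2-fold in either library, and 3 of the 6 were above 0 in each. Ssr1, a subunit of the translocon-associated TRAP complex, led the group on the acinar side with a log2 ratio of 0.48 in Null and 0.35 in Control, and Ssr3, of the same complex, stood at 0.39 in Null and 0.22 in Control. Ssr2, another subunit of that complex, was on the endocrine side at -0.29 in Null and -0.25 in Control. Sec61b, a small subunit of the translocation channel, was at -0.29 in Null and -0.23 in Control. Spcs1, a subunit of signal peptidase, closed the group at -0.56 in Null and -0.50 in Control. Sec61a1, the pore of the translocation channel, was at 113 CPM in acinar cells of Null and 106 CPM in acinar cells of Control, against 109 CPM in endocrine cells of Null and 103 CPM in endocrine cells of Control. The intervals of its log2 ratio held 0 in both libraries.

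ER-associated degradation was the group with the highest median ratio, 0.61 in Null and 0.14 in Control over its 4 genes. Edem1, a lectin that marks glycoproteins for disposal, had 115 CPM in acinar cells of Null and 98.0 CPM in acinar cells of Control, against 25.3 CPM in endocrine cells of Null and 28.7 CPM in endocrine cells of Control. Both acinar levels were the higher, with log2 ratios of 2.18 in Null (2.05 to 2.32) and 1.77 in Control (1.64 to 1.90). Sel1l followed at 0.88 in Null and 0.29 in Control, where the Control ratio is the smaller. Syvn1 (Hrd1), the ubiquitin ligase that Sel1l holds in place, went the other way, with 18.6 CPM in acinar cells of Null and 15.8 CPM in acinar cells of Control, against 31.6 CPM in endocrine cells of Null and 26.4 CPM in endocrine cells of Control. The 2 partners of 1 ligase therefore had ratios of opposite sign in each library, since that of Syvn1 was -0.77 in Null and -0.74 in Control. Herpud1, a further part of the same complex, was at 0.33 in Null and -0.01 in Control, and in Control its interval held 0.

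Sensors and their transcription factors did not share a direction. Of the sensors, Ern1 (IRE1), the kinase and RNase that splices Xbp1 RNA, had 13.5 CPM in acinar cells of Null and 12.0 CPM in acinar cells of Control, against 25.1 CPM in endocrine cells of Null and 28.4 CPM in endocrine cells of Control. Its log2 ratio was -0.90 in Null and -1.24 in Control, past 2-fold in Control only. Xbp1, whose RNA Ern1 splices, had the opposite order, with 364 CPM in acinar cells of Null and 325 CPM in acinar cells of Control, against 146 CPM in endocrine cells of Null and 151 CPM in endocrine cells of Control. Its log2 ratio was 1.31 in Null (1.26 to 1.37) and 1.11 in Control (1.05 to 1.16), and in the other 6 classes it stayed between 74.4 and 162 CPM. These 3′ counts do not tell spliced from unspliced Xbp1. Atf6 was lower in acinar cells, at -0.65 in Null and -0.95 in Control. Eif2ak3 (PERK), the kinase that slows translation under stress, had 23.3 CPM in acinar cells of Null and 12.8 CPM in acinar cells of Control, against 13.3 CPM in endocrine cells of Null and 12.3 CPM in endocrine cells of Control. The acinar level of the Null library stood alone, and the log2 ratio was 0.81 in Null and 0.06 in Control. Atf4, which the PERK branch translates under stress, was level at 0.07 in Null and 0.05 in Control. Ddit3, a target of that branch, was lower in acinar cells at -1.27 in Null and -1.33 in Control. Ddit3 has 2 features on overlapping loci, 1 of them with no UMI in either library, and reads that fit both may have been left uncounted. Trib3 had 84 UMIs in acinar cells of Null and 58 in acinar cells of Control, against 30 in endocrine cells of Null and 19 in endocrine cells of Control, and its ratio of -1.24 in Null had an interval of -1.86 to -0.59.

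**Figure D2:**
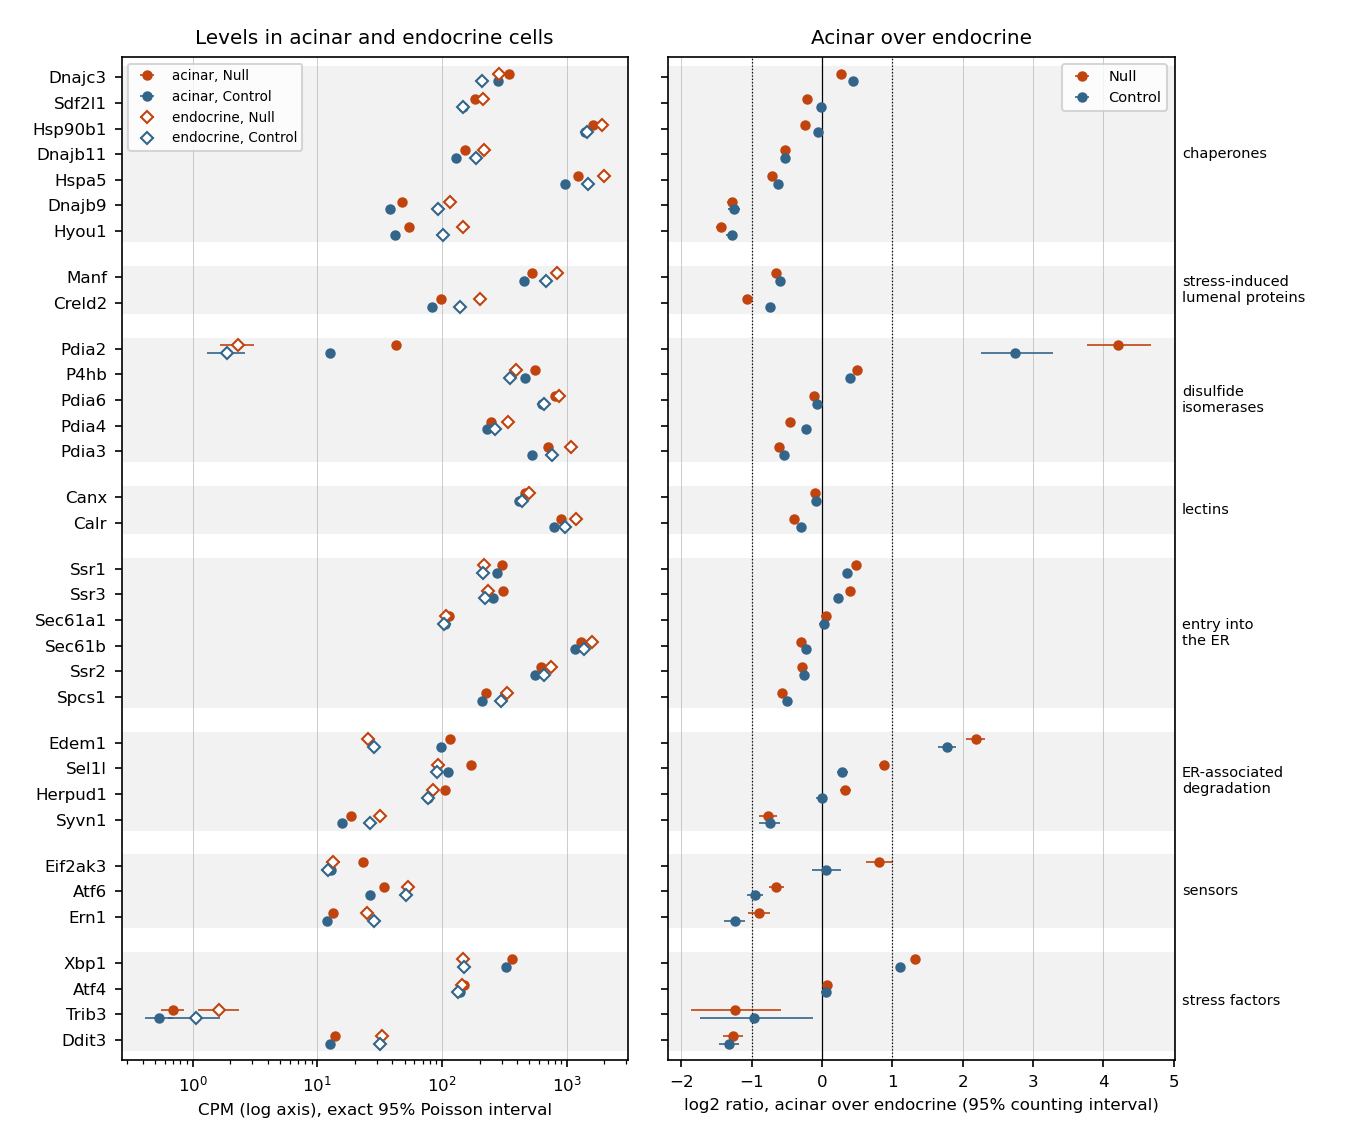
Left, level of each of the 33 genes (CPM, log axis, exact 95% Poisson intervals) in acinar cells (filled circles) and endocrine cells (open diamonds) of the Null library (orange) and the Control library (blue). Right, the log2 ratio of acinar over endocrine in each library with its 95% counting interval, with dotted lines at 2-fold; Pdia2, Edem1 and Xbp1 lie right of the upper line in both libraries, and Hyou1, Dnajb9 and Ddit3 left of the lower one in both.

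Of the 8 genes with an ERSE match in the promoter, 7 had ratios below 0 in both libraries, and Dnajc3, at 0.27 in Null and 0.44 in Control, was above 0. Most features leaned the same way, with all-feature medians of -0.56 in Null and -0.58 in Control. A link between the motif and the ratio was not tested. Creld2 was the lowest of the 8 in Null (-1.06) and Syvn1 in Control (-0.74), while Canx and Pdia6 stood between -0.11 and -0.07 in both libraries. Of the other 25 genes, 5 of which had no promoter to search, 14 in Null and 15 in Control were below 0.

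Endocrine cells were not uniform, and the insulin-led cluster carried the largest share of the 33 genes. The cluster led by Ins1, Ins2 and Iapp held 193 cells in Null and 187 in Control, and the 33 genes made up 2.21% of its UMIs in Null and 1.79% in Control. In the cluster led by Gcg and Gast, with 217 cells in Null and 372 in Control, they made up 1.10% in Null and 1.02% in Control. The clusters led by Chgb, Chga and Fev and by Sst and Ghrl lay close to the glucagon-led one, the first at 1.07% in Null and 0.929% in Control and the second at 1.18% in Null and 1.06% in Control. A further endocrine cluster of low depth, with median UMI counts of 2498 in Null and 3575 in Control, stood at 1.23% in Null and 1.14% in Control. Hormone and granule genes took 13.2% of UMIs in the insulin-led cluster in Null and 9.77% in Control, against 7.09% in the glucagon-led cluster in Null and 5.93% in Control. Of the 33 genes, 24 in Null and 22 in Control were highest in the insulin-led cluster among the 5 endocrine clusters.

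Set against the glucagon-led cluster, 31 of the 33 genes had enough UMIs to be counted, Pdia2 and Trib3 being the exceptions. In Null, 15 were more than 2-fold higher in the insulin-led cluster (background 4.56% of 12223 features) and 0 more than 2-fold lower (background 9.43%). In Control, 8 were higher (background 3.69% of 12277 features) and 0 lower (background 7.09%). The median log2 ratio was 0.99 in Null, against -0.19 over all features, and 0.83 in Control, against -0.11 over all features. Sdf2l1, a lumenal partner of the J-domain chaperones, had the widest ratio, with 520 CPM in the insulin-led cluster and 108 CPM in the glucagon-led cluster of Null, a log2 ratio of 2.27 (2.14 to 2.41), and with 385 CPM in the insulin-led cluster and 102 CPM in the glucagon-led cluster of Control, a log2 ratio of 1.91 (1.77 to 2.05). Creld2 had log2 ratios of 2.02 in Null and 1.68 in Control, and Dnajb9 1.76 in Null and 1.68 in Control. Edem1 differed between libraries, at 2.11 in Null and 0.85 in Control, on 59 glucagon-led UMIs in Null and 137 in Control. Among the sensors, Atf6 stood at 0.99 in Null and 0.49 in Control, Eif2ak3 at 0.24 in Null and 0.54 in Control and Ern1 at -0.05 in Null and -0.13 in Control. Among the factors, Xbp1 stood at 0.57 in Null and 0.40 in Control, Ddit3 at 0.36 in Null and 0.79 in Control and Atf4 at 0.21 in Null and 0.16 in Control. Of the 31 genes, the intervals held 0 for Ern1 and Eif2ak3 in both libraries, for Ssr2 in Null and for Atf4 in Control. With the hormone and granule genes taken out of the total, the median was 1.08 in Null and 0.89 in Control.

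**Figure D3:**
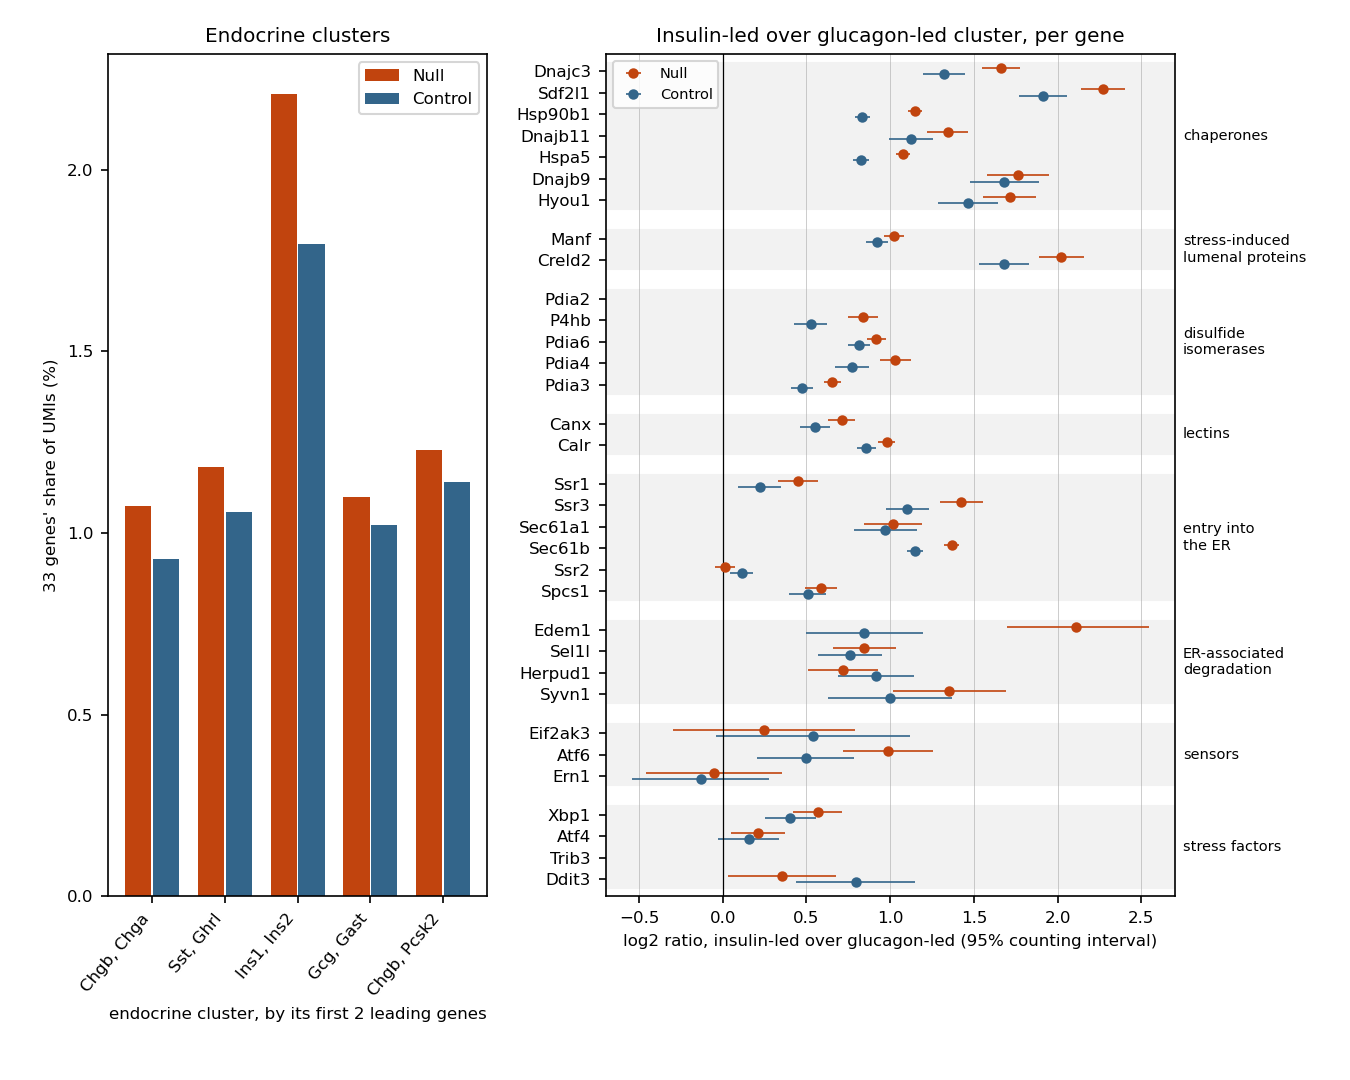
Left, share of UMIs taken by the 33 genes (%) in each endocrine cluster, named by its first 2 leading genes, in the Null library (orange) and the Control library (blue). Right, log2 ratio of the insulin-led over the glucagon-led cluster for each gene with its 95% counting interval; Pdia2 and Trib3 are left out for low counts. The bars of the insulin-led cluster are the tallest, at 2.21% in Null and 1.79% in Control, and every gene plotted except Ern1 lies right of 0 in both libraries.

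How acinar cells compared with endocrine cells depended on the endocrine cluster. Acinar cells against the insulin-led cluster had 13 genes more than 2-fold lower and 2 higher in Null (backgrounds 30.9% lower and 17.0% higher) and 12 lower and 2 higher in Control (31.7% lower and 13.1% higher), with median log2 ratios of -0.90 in Null and -0.85 in Control. Against the glucagon-led cluster, acinar cells had 2 genes lower and 7 higher in Null (36.0% lower and 13.2% higher) and 1 lower and 3 higher in Control (34.6% lower and 11.6% higher), and the medians were 0.06 in Null and -0.04 in Control. The all-feature medians were -0.37 in Null and -0.45 in Control against the insulin-led cluster and -0.55 in Null and -0.54 in Control against the glucagon-led one.

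Among acinar cells, the 33 genes were higher where the enzyme genes were higher. Acinar cells of each library were split into terciles by the share of their UMIs from enzyme genes, and CPM was taken over UMIs outside those genes. In Null the terciles had median enzyme shares of 2.09%, 4.47% and 8.81%, and the 33 genes made up 1.01%, 1.23% and 1.57% of the remaining UMIs. In Control the enzyme shares were 1.18%, 2.53% and 4.85%, and the 33 genes made up 0.876%, 1.01% and 1.23%. All 33 genes stood in the order low, middle, high in both libraries. High over low, 31 genes were more than 25% higher in Null (background 24.7% of 14459 features) and 29 in Control (background 17.8% of 14361 features). None of the 33 was more than 20% lower, the same log2 distance of 0.32 on the other side, in either library (backgrounds 19.7% in Null and 17.1% in Control). The median log2 ratio was 0.68 in Null, against 0.00 over all features, and 0.54 in Control, against -0.04 over all features. The median depth in Null was 42471 UMIs in the high tercile and 51193 in the low tercile, and in Control it was 28787 in the high tercile and 32266 in the low tercile, and the part of depth was not tested.

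Pdia2 followed the enzymes most closely. In Null it had 9.93 CPM in the low tercile, 31.6 in the middle and 104.9 in the high tercile, and in Control it had 2.70 CPM in the low tercile, 8.67 in the middle and 30.2 in the high tercile. The log2 ratio of high over low was 3.40 in Null (3.26 to 3.55) and 3.48 in Control (3.18 to 3.80). Sel1l had the next widest ratio in both libraries, at 1.75 in Null and 1.63 in Control, with 315 CPM in the high tercile and 93.6 in the low tercile of Null. Eif2ak3 stood at 1.24 in Null and 0.82 in Control, Herpud1 at 1.11 in Null and 0.90 in Control, and Sdf2l1 at 1.06 in Null and 0.96 in Control. Xbp1, although higher in acinar than in endocrine cells, had a modest ratio of 0.48 in Null and 0.54 in Control. Canx, the membrane-bound lectin chaperone, was nearly flat at 0.10 in Null and 0.06 in Control. For Trib3 the interval held 0 in both libraries.

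**Figure D4:**
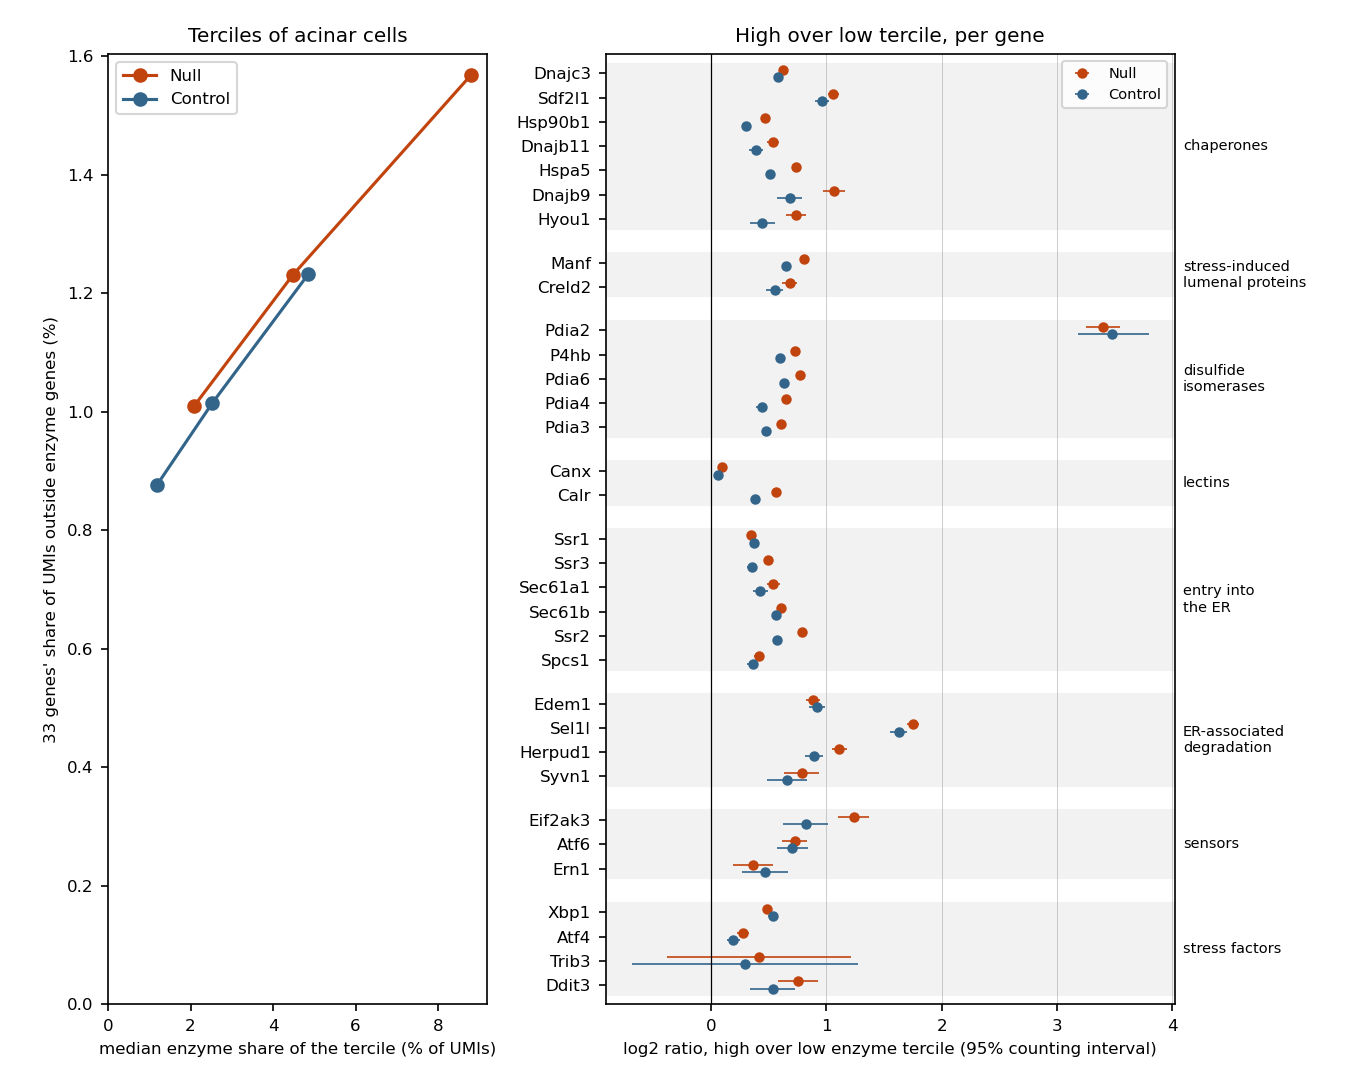
Left, share of UMIs outside enzyme genes taken by the 33 genes (%) in the low, middle and high tercile of acinar cells by enzyme share, plotted against the median enzyme share of the tercile (%), in the Null library (orange) and the Control library (blue). Right, log2 ratio of the high over the low tercile for each gene with its 95% counting interval. Both lines climb with the enzyme share, and every gene lies right of 0, with Pdia2 furthest at 3.40 in Null and 3.48 in Control.

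Between genotypes, the 33 genes stood higher in the Null library in both secretory cell types. In acinar cells all 33 log2 ratios, Null over Control, were above 0, with a median of 0.24 against -0.01 over all features. Of these, 11 were more than 25% higher (background 12.6% of 16494 features) and 0 more than 20% lower (background 13.3%). In endocrine cells 30 of 33 ratios were above 0, with a median of 0.20 against 0.00 over all features. In these cells 11 were more than 25% higher (background 9.68% of 14881 features) and 0 more than 20% lower (background 16.3%). Hspa5, Hyou1, Pdia3, Pdia6, Sdf2l1 and Trib3 were past 25% in both classes, Trib3 with intervals that held 0.

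The leading genes differed by class. In acinar cells Pdia2 was furthest, at 42.5 CPM in Null and 12.7 CPM in Control, a log2 ratio of 1.74 (1.65 to 1.83). Eif2ak3 followed with 23.3 CPM in Null and 12.8 CPM in Control, a log2 ratio of 0.86 (0.77 to 0.96). Sel1l had 170 CPM in Null and 111 CPM in Control, a log2 ratio of 0.62 (0.58 to 0.65). In Null these 3 genes also had the widest ratios between the enzyme terciles. In endocrine cells the largest ratios with intervals above 0 belonged to proteins of the ER lumen. Creld2 had 203 CPM in Null and 138 CPM in Control, a log2 ratio of 0.55 (0.48 to 0.63). Sdf2l1 had 214 CPM in Null and 147 CPM in Control, a log2 ratio of 0.54 (0.47 to 0.61), and Hyou1 had 147 CPM in Null and 102 CPM in Control, a log2 ratio of 0.53 (0.44 to 0.61). Edem1, Ern1 and Xbp1 were the 3 genes at or below 0 there, at -0.18, -0.18 and -0.04.

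**Figure D5:**
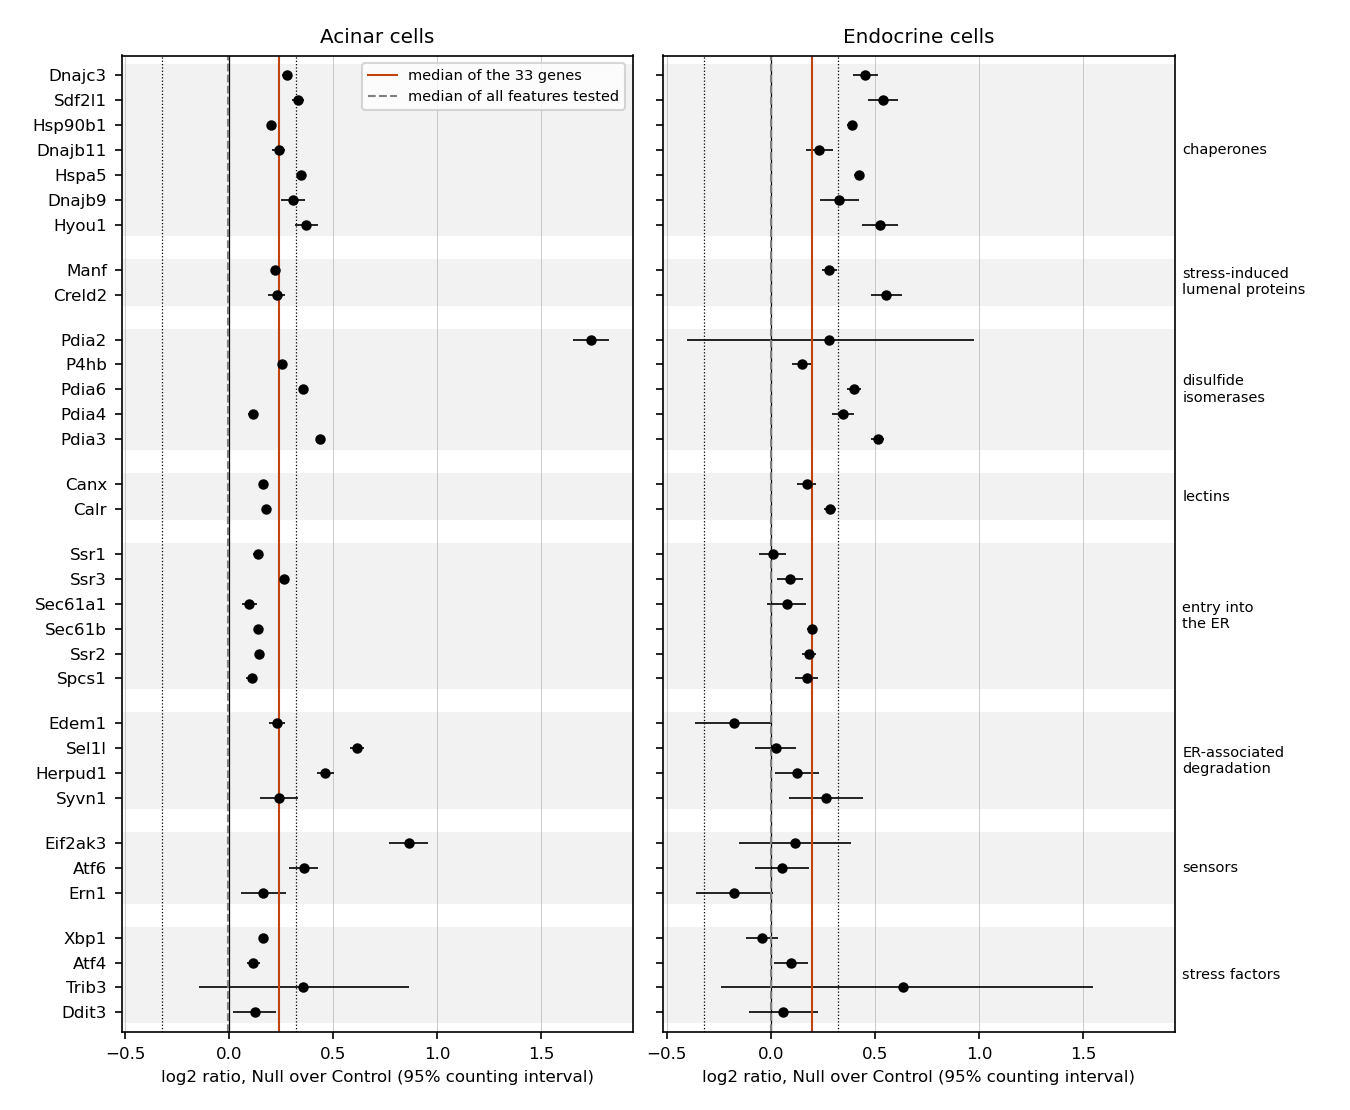
Log2 ratio of Null over Control for each of the 33 genes with its 95% counting interval, in acinar cells (left) and endocrine cells (right). The orange line marks the median of the 33 genes (0.24 and 0.20), the dashed grey line the median of all features tested, and dotted lines mark 25% higher and 20% lower; all 33 points are right of 0 in acinar cells and 30 in endocrine cells.

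The make-up of both classes differed between the libraries, and in each class the cluster with the largest share of the 33 genes was larger in Null. The acinar cluster richest in enzymes, in which 30 of the 33 genes in Null and 31 in Control were at their highest among the 6 acinar clusters, held 22.1% of acinar cells in Null and 5.99% in Control. Of 34 enzyme genes counted in acinar cells, 28 were more than 25% higher in Null and 2 more than 20% lower, with a median log2 ratio of 1.04. With acinar cells kept only at enzyme shares of 2 to 4%, 736 cells remained in Null and 1261 in Control. The median of the 33 genes was then 0.06, against 0.03 over all features. Past 25% were 3 genes (Pdia2, Eif2ak3 and Trib3), near the background share of 9.48%. Pdia2 was then at 0.80 and Eif2ak3 at 0.46. With the acinar clusters weighted alike the median was 0.16 and 6 genes were past 25% (background 12.1%). The insulin-led cluster held 20.6% of endocrine cells in Null and 12.6% in Control. Other clusters differed as well. The low-depth endocrine cluster held 10.5% of endocrine cells in Null and 20.5% in Control. The acinar cluster led by Serpini2 and Nupr1 held 19.7% of acinar cells in Null and 30.9% in Control. With the endocrine clusters weighted alike the median was 0.11, against 0.03 over all features. In that setting 6 genes were more than 25% higher, near the background share of 17.9%, and 1 was more than 20% lower (background 17.6%). These backgrounds were above the 9.68% higher and 16.3% lower of the unweighted class. The low-depth endocrine cluster counted there as much as any other, and its part was not tested. Within single clusters the medians were between 0.09 and 0.31 in the acinar ones, against -0.02 to 0.03 over all features. In the endocrine ones they were between 0.04 and 0.22, against -0.04 to 0.07 over all features. The widest endocrine value was that of the insulin-led cluster (0.22 against -0.04), with 25 of 31 counted genes above 0. The lowest was that of the cluster led by Sst and Ghrl (0.04 against 0.03), with 17 of 31 above 0.

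In the other classes the 33 genes did not stand apart in this way. The medians, Null over Control, were -0.07 in endocrine progenitors against 0.08 over all features, -0.05 in ductal or trunk progenitors against 0.09, 0.03 in mesenchymal cells against 0.01, 0.02 in mesothelial cells against -0.03, 0.11 in endothelial cells against 0.11 and 0.03 in immune cells against -0.01. Endothelial cells had 7 genes more than 25% higher (background 29.2%) and 2 more than 20% lower (background 13.8%), and mesothelial cells had 4 higher (20.7%) and 3 lower (22.2%). Ductal or trunk progenitors had 2 higher (19.5%) and 2 lower (9.36%), and endocrine progenitors had 0 higher (19.8%) and 3 lower (11.2%). Mesenchymal cells had 1 higher (18.6%) and 2 lower (18.9%), and immune cells had 2 higher (17.7%) and 3 lower (19.7%). In each of these 6 classes, the share of the 31 to 33 counted genes that was higher lay below the background, and endocrine progenitors had none. Pdia3, Hspa5 and Hsp90b1 had ratios above 0 in all 8 classes. For Pdia3 these ran from 0.16 in endocrine progenitors to 0.51 in endocrine cells, with 771 CPM in Null and 550 CPM in Control in mesenchymal cells. Sdf2l1 split by class, at 0.33 in acinar and 0.54 in endocrine cells but -0.77 in endocrine progenitors, where it had 23.0 CPM in Null and 39.2 CPM in Control. Xbp1 and Edem1 were above 0 in acinar cells alone among the 8 classes. The free-RNA share and the depth of the cells differ between the libraries as given above, and their part in these ratios was not tested beyond the subtraction and thinning described with the processing.

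Other genes of the same pathway, listed by function, are read against the background given above for acinar over endocrine cells, 14.5% higher and 36.1% lower in Null and 11.8% higher and 36.1% lower in Control. Of 26 further folding genes, 3 were more than 2-fold higher in acinar than in endocrine cells in each library (11.5%), and 8 in Null (30.8%) and 7 in Control (26.9%) were lower, shares near or below the background. Fkbp11, a prolyl isomerase of secretory cells, was among the higher at 2.19 in Null and 1.83 in Control. Ero1lb, the oxidase that recharges disulfide isomerases and is known from insulin-making cells, was lower at -2.13 in Null and -1.96 in Control, and the prolyl isomerase Fkbp14 at -2.81 in Null and -2.66 in Control. Of 23 further genes of entry into the ER, 0 were higher and 2 lower in each library (8.70%), the signal recognition particle subunit Srp14 (-1.68 in Null and -1.49 in Control) and the signal peptidase subunit Sec11c (-1.55 in Null and -1.38 in Control). Of 21 further degradation genes, 1 in Null (4.76%) and 0 in Control were higher, and 5 in Null (23.8%) and 4 in Control (19.0%) were lower, also below the background. The lower genes included Selenok (-1.38 in Null and -1.27 in Control) and Derl3 (-1.25 in Null and -1.22 in Control). The median of these 21 genes was -0.58 in Null and -0.52 in Control, on the other side of 0 from Edem1 and Sel1l.

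The widest ratios of these further lists were among 26 stress genes that could be counted, of which 6 were more than 2-fold higher (23.1%, above the background) and 5 lower (19.2%, below it) in each library. Nupr1, a stress-induced chromatin protein first known from the inflamed pancreas, had 1077 CPM in acinar cells of Null and 889 CPM in acinar cells of Control, against 37.6 CPM in endocrine cells of Null and 110.0 CPM in endocrine cells of Control. Phgdh, the first enzyme of serine synthesis and a known Atf4 target, had log2 ratios of 4.32 in Null and 2.83 in Control. On the endocrine side, Sesn2, another gene known to follow Atf4, stood at -3.49 in Null and -3.83 in Control, and Wfs1, an ER membrane protein whose loss is known to cause diabetes, at -3.47 in Null and -3.51 in Control. Phgdh and Sesn2 thus lay at opposite ends of the order, while Atf4 itself had ratios of 0.07 in Null and 0.05 in Control. They are 2 genes only, and whether Atf4 targets as a group lean to 1 side was not counted. Of the 16 genes of COPII vesicles and ER retrieval, 1 was higher (Kdelr3, at 1.80 in Null and 1.88 in Control; 6.25%) and 2 were lower (Sec31a and Sec23a, between -1.13 and -1.10; 12.5%) in each library, again below the background.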

How the data were processed

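Single-cell RNA libraries of the embryonic day 14.5 mouse pancreas were analysed from the deposited matrices, in which the values are raw, whole UMI counts for each gene in each barcode, per the file headers. The authors used bcl2fastq, Cell Ranger 6.1.1 and Seurat 3.2.3 with the mm10 build, per the submitters' processing notes, and the sources used here do not say whether strand was used in counting. The genes, the lists of other pathway genes, the markers and the alternatives were chosen with earlier results of these data known.

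Barcodes with at least 1000 UMIs, at least 300 genes and under 15% mitochondrial UMIs were kept. Doublets were called per library with Scrublet (scanpy 1.11.5) among barcodes of at least 5000 UMIs, at its automatic threshold, which marked 293 of 7688 scored barcodes in Null (3.81%) and 1263 of 13893 in Control (9.09%). Cells were clustered on 2000 variable genes that excluded all genes described here (30 principal components, 15 neighbours, Leiden resolution 1), and clusters were named from fixed markers, at least 3 of which had to stand 1 log2 unit above the other clusters; a rebuilt name can differ from the authors' own. Epithelial cells were clustered again in the same way. A cluster led by markers of another class stayed unnamed, as did a low-depth cluster with no marker of its class among its leading genes.

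For each library and class, UMIs were added up and divided by the total without haemoglobin and mitochondrial genes (CPM). A gene was counted in a comparison with at least 20 UMIs over both sides. Past 2-fold is the mark between classes or clusters, and 25% higher or 20% lower (log2 ratio 0.32) between genotypes or enzyme terciles; the background is the share of all counted features past the same mark in the same direction. Intervals (exact Poisson for levels, exact conditional for ratios, exact binomial for shares of cells; 95%) cover counting error only. Cells are not replicates, so no p-value was computed. Free RNA was estimated per library by taking all acinar enzyme UMIs in endocrine cells as free, with the make-up of all barcodes. The intervals were tested on simulated data. Every one of the 33 genes is named by rule, and up to 4 genes of each further list by the size of the ratio; the named few of each role lead or close its order. Of the listed symbols, 6 had no feature. The numbers of samples limit every statement to these 2 libraries.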

Additional observations from a re-analysis of the deposited data

How the results depend on the processing

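No paired analysis was possible because each genotype has 1 library and the labels carry no replicate numbers; for the same reason no replicate could be left out. The 14 alternatives for acinar over endocrine kept the sign of the ratio for 27 of the 33 genes in Null and 21 in Control, and for 24 genes in each class for Null over Control; Pdia2, Edem1 and Xbp1 stayed above 0, and Hyou1, Dnajb9 and Ddit3 below it, under every one of them. The alternatives that weighted the epithelial clusters alike, kept acinar cells at enzyme shares of 2 to 4% only, left out barcodes found in both libraries or left out the low-depth endocrine cluster were chosen after seeing the data.

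The median ratio of acinar over endocrine is a small quantity that many settings moved. In Null (main value -0.29) it was -0.32 with the totals taken without enzyme, hormone and granule genes and -0.32 with free RNA subtracted, -0.11 with cells thinned to 2000 UMIs, -0.13 as a mean of per-cell CPM, -0.23 with classes cut by marker UMIs, -0.13 with called doublets kept, -0.031 with endocrine progenitors added to the endocrine cells, -0.19 with clusters weighted alike and -0.50 with acinar enzyme shares of 2 to 4%. In Control (main value -0.23) it was -0.31 with free RNA subtracted, -0.083 thinned, -0.11 as a mean of per-cell CPM, -0.15 with classes cut by marker UMIs, -0.022 with doublets kept, -0.14 with clusters weighted alike and -0.18 with enzyme shares of 2 to 4%, and it reversed to 0.027 with endocrine progenitors added. Counts past 2-fold were 5 in Null when thinned (against 8), and in Control 4 with doublets kept and 4 with progenitors added (against 7). When thinned, Trib3 in Null reversed to 0.094 on few UMIs.

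Null over Control in acinar cells had a median of 0.27 without enzyme and hormone genes in the total. With clusters weighted alike it was 0.16, with 6 genes more than 25% higher (background 12.1%). At enzyme shares of 2 to 4% it was 0.063, with 3 genes higher (background 9.48%), and Sdf2l1 reversed to -0.013. In endocrine cells the median was 0.23 without those genes in the total and 0.13 with free RNA subtracted. It was 0.25 with classes cut by marker UMIs and 0.27 with doublets kept. With clusters weighted alike it was 0.11, and 7 genes were past the mark, 6 higher (background 17.9%) and 1 lower (background 17.6%). The cause was not tested. Sharing of UMIs by free RNA, the few UMIs of Trib3 and, outside acinar cells, of Pdia2, and 1 library a genotype set the limits.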
